A study of Homo sapiens with 42 samples.

Results

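In OCI-Ly3 lymphoma cells, 247 of the 12303 rows that passed a filter on low values (23250 rows in all) moved at least 2-fold with one hairpin against MALT1, called hairpin 2, and hardly with the other, hairpin 1. Each row is 1 gene model, listed by a running number and a CPM (its reads scaled to a common library total). A row passed the filter with a CPM of at least 1 in 3 or more of the 18 knockdown libraries. Its change was the median of log2(CPM + 1) in the 3 hairpin libraries minus that in the 3 non-targeting libraries. Rows were kept with a change of 1 or more, or -1 or less, with hairpin 2, and between -0.3 and 0.3 with hairpin 1. Of the 247 members, 162 were raised and 85 were lowered. The members were thus chosen by their CPM in the 9 OCI-Ly3 knockdown libraries, and those values are given as a description, with no test. The question put to the other libraries was whether hairpin 2 in a second line, or a MALT1 inhibitor, moves the same rows.

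MALT1 is a scaffold and a protease that carries signals from the B cell receptor to NF-kB, and lymphomas of the activated B cell-like type often depend on it. A short hairpin RNA is cut by the cell into a small RNA that leads to the breakdown of transcripts pairing with it, and it can also lower other transcripts through a short stretch near its 5′ end. A second hairpin against the same gene, and a small molecule that blocks the protein, are therefore common companions of a knockdown. An inhibitor of the protease leaves the MALT1 protein in place, whereas a hairpin removes its transcript.

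OCI-Ly3 and TMD8 are established human lines of this lymphoma type (ABC-DLBCL). In the knockdown experiment, a lentivirus brought hairpin 1 or hairpin 2 against MALT1, or a hairpin with no target (shCntrl), into both lines, in 6 groups of 3 libraries, so that the controls too were infected cells. In the compound experiment, both lines received compound 3, a covalent MALT1 inhibitor, at 100 nM, or the solvent DMSO, for 8 h or 24 h, in 8 groups of 3. The labels do not give the time after infection, the hairpin sequences or whether replicates were separate cultures. Every p-value therefore rests on library-to-library spread alone, which may be technical.

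The files do not pair row numbers with gene names, so no row is named here, no member's sequence is shown, and neither the level of MALT1, the usual check of a knockdown, nor markers of B cells are reported. Reads in the rows came to 15.8 to 19.4 M a library in the knockdown and 23.3 to 31.6 M with the compound. A CPM of 1 stood for 20.5 to 24.5 reads in the first and 32.3 to 40.9 in the second. OCI-Ly3 shCntrl replicate 1 stood apart: it differed from the average of the other 2 controls by over 1 log2 unit in 1168 rows, 52 of them members, against 171 and 147 rows for those controls. In the same way the TMD8 8 h libraries numbered 1 stood apart in 526 rows with DMSO and 540 rows with compound 3.

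The members were part of a larger response to hairpin 2. Of the 434 rows raised at least 2-fold by it in OCI-Ly3, 162 were within 0.3 of the control with hairpin 1, 268 rose beyond 0.3 with hairpin 1 as well, and 4 fell beyond 0.3. Of the 192 rows lowered at least 2-fold, 85 were within 0.3, 104 fell with hairpin 1 too, and 3 rose. So 39.5% of the 626 strongly moved rows make up the list. The change with hairpin 2 had a median of 1.16 on the log2(CPM + 1) scale in the raised members, from 1.002 to 3.10, and of -1.12 in the lowered, from -1.92 to -1.0. Within the limits, the hairpin 1 change was above 0 in 121 of the 162 raised members (median 0.16, and 0.11 without shCntrl replicate 1) and below 0 in 66 of the 85 lowered (median -0.13, and -0.15). Both hairpin changes use the same 3 controls and chose the rows, so nothing is read from these counts.

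The limits cut through a continuous range. At the limit of 1, row 1734 lay inside with 1.0023 and row 11932 outside with 0.9989; at -1, row 1621 lay inside with -1.0003 and row 20259 outside with -0.9974. For hairpin 1, row 1738 was inside with 0.2995 and row 2490 outside with 0.3036, and row 10451 was inside with -0.2948 and row 17808 outside with -0.3007. All 3 hairpin 2 libraries lay above the 6 others of the line in 153 of the 162 raised members, beside 19.2% of all 12303 rows, and below them in 76 of the 85 lowered members, beside 19.0%; the rule used these values, so nothing is read from the counts. Without shCntrl replicate 1, 138 of the raised and 76 of the lowered members stayed past the hairpin 2 limit. The whole rule then gave 264 rows, 205 of them among the 247. Without shCntrl replicate 2 it gave 169 rows, of which 107 were shared, and without replicate 3 it gave 171, of which 109 were shared.

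The median over the raised members, relative to the mean of the shCntrl libraries, was -0.18, 0.12 and 0.08 in the 3 controls of OCI-Ly3, 0.18, 0.16 and 0.27 with hairpin 1, and 1.18, 1.34 and 1.32 with hairpin 2. For the lowered members it was -0.10, -0.09 and -0.22 with hairpin 1 and -1.03, -1.12 and -1.21 with hairpin 2. In these libraries 74.1% ± 0.60 (SD, n = 3) of all reads fell in the rows with hairpin 2, against 78.4% ± 1.14 with hairpin 1 and 78.6% ± 0.63 with shCntrl. The share of reads in the rows thus moved with the group in which the raised members were high, and its part in the result was not tested.

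**Figure D1:**
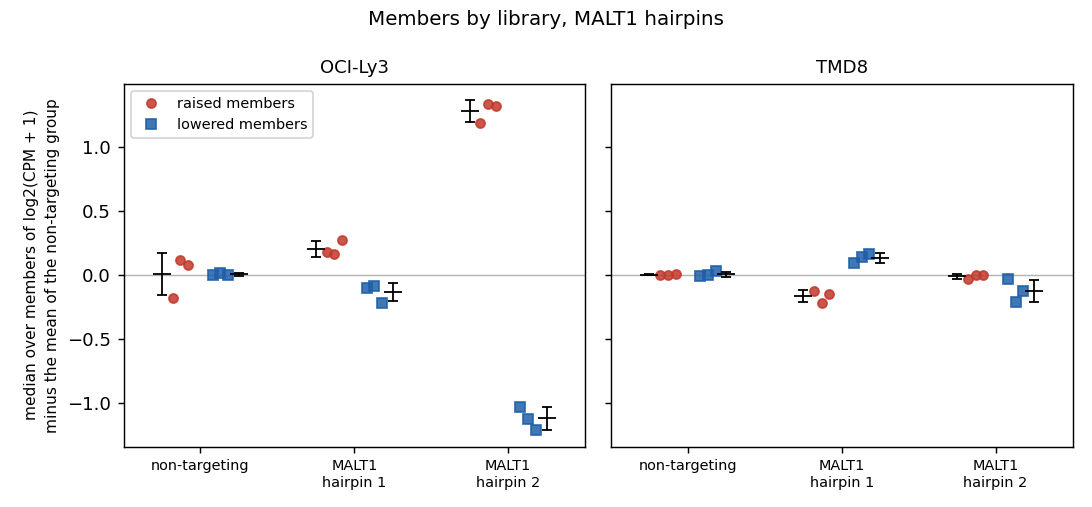
Median over the 162 raised members (circles) and the 85 lowered members (squares) of log2(CPM + 1) minus the mean of the non-targeting group, for each knockdown library of OCI-Ly3 (left) and TMD8 (right). Black bars give the mean and SD of 3 libraries. The hairpin 2 libraries of OCI-Ly3 lie at 1.18 to 1.34 and -1.21 to -1.03, as the rule requires, while all TMD8 libraries lie between -0.22 and 0.16.

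Row 14266 was the most raised member. Its CPM in OCI-Ly3 was 5.80, 4.86 and 4.52 with shCntrl, 4.74, 5.71 and 5.90 with hairpin 1, and 45.5, 49.1 and 56.0 with hairpin 2. Hairpin 1 libraries overlapped the controls and hairpin 2 libraries were far above both. Row 9069 followed, at 0.256, 0.329 and 0.0887 CPM with shCntrl, 0.818, 0.429 and 0.439 with hairpin 1 and 7.09, 10.2 and 6.0 with hairpin 2. Row 15016 stood at 0.128, 1.52 and 1.64 CPM in the controls and at 10.1, 11.1 and 12.3 with hairpin 2. In that row the low control is replicate 1, yet the hairpin 2 libraries exceed every other library of the line. The other members among the 6 most raised, rows 18148, 10552 and 11078, had changes of 2.02, 2.02 and 2.003.

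Row 253 was the most lowered member, with a change of -1.92. It was at 20.1, 24.0 and 25.9 CPM with shCntrl, 22.8, 21.8 and 19.4 with hairpin 1 and 3.77, 5.63 and 7.02 with hairpin 2, so the hairpin 2 libraries did not overlap the others. Rows 20619, 15236, 8354 and 2523 had changes of -1.82, -1.76, -1.71 and -1.70. Row 15973, with -1.68, was at 66.5, 187 and 182 CPM with shCntrl, 168, 168 and 176 with hairpin 1 and 59.6, 56.1 and 54.3 with hairpin 2. Here shCntrl replicate 1 lay close to the hairpin 2 libraries and far from the other controls.

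The raised members gave fewer reads than the lowered ones. The median CPM in the OCI-Ly3 controls was 5.14 over the raised members, 44.6 over the lowered and 22.9 over all 12303 rows; CPM is not divided by length, so these are read numbers and not transcript levels. There were 15 raised members that passed the filter only through the hairpin 2 libraries of OCI-Ly3, and no lowered member did. Several members were scarcely read in TMD8, where 34 raised and 6 lowered members stayed below 1 CPM in all 9 knockdown libraries, 9 of the raised members being at 0 in all of them. In the controls, TMD8 was at least 2-fold lower than OCI-Ly3 in 23.5% of the raised and 29.4% of the lowered members, against 13.2% of all rows. TMD8 was at least 2-fold higher in 13.6% of the raised and 2.35% of the lowered members, against 11.4% of all rows. The OCI-Ly3 controls also chose the members, and a row must have reads in them to fall by 1. In these controls 0 of the 85 lowered members averaged below 1 CPM, beside 7.76% of all rows. Nothing is therefore concluded from these shares or from the medians of the OCI-Ly3 controls.

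In TMD8, raised members were called in both directions with hairpin 2, while the lowered members that were called were nearly all lower. All members were tested there with limma on log2(CPM + 1) in the 9 TMD8 libraries, none of which the change limits read, with Benjamini-Hochberg adjustment over the 12303 rows and calls at an adjusted p below 0.05. Of the 162 raised members, 19 were called higher (11.7%) and 21 lower (13%), beside 12.3% of all rows called higher and 9.27% called lower. The median change of the raised members was 0.0, beside 0.02 over all rows, and 73 of 162 were above 0. These 162 include 9 members with no reads in the TMD8 libraries, whose change is 0. With rows kept instead by a CPM of at least 1 in 3 or more of the 9 TMD8 libraries, 121 raised members were left, of which 22 were called higher (18.2%) and 17 lower (14%), beside 13.6% and 10.1% of all 11395 rows. The order of the directions thus turned with the filter. Their median change was then 0.03, beside 0.03 over all rows, and 62 of 121 were above 0 (51.2%, beside 56.4% of all rows). Of the 85 lowered members, 20 were called lower (23.5%) and 1 higher, and 64 of 85 were below 0, with a median change of -0.09. That median was -0.17 without hairpin 2 replicate 1, -0.15 without shCntrl replicate 1, and below 0 in each of 19 alternatives. Each library is a bulk sample of a single line, so a change in some cells and a smaller one in all cells cannot be told apart.

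Libraries that did not overlap were counted as well. Among the 154 raised members whose hairpin 2 libraries lay wholly above the controls in OCI-Ly3, the TMD8 hairpin 2 libraries lay wholly above their own controls in 34 (22.1%) and wholly below them in 31 (20.1%), beside 20.7% and 15.7% of all 12303 rows. Among the 76 lowered members with no overlap in OCI-Ly3, the TMD8 libraries were wholly below the controls in 26 (34.2%) and wholly above in 3 (3.95%), beside the same 15.7% and 20.7%. The lean of the lowered members was present among well-read rows. In rows with a mean of at least 20 CPM over all libraries, 25.4% of 59 lowered members had a change above 0, against 64.0% of all 6749 rows. The calls among the members fell from 61 to 37 when all 18 knockdown libraries shared 1 estimate of the spread. Those over all rows fell from 2649 to 1051. With the 205 members that also pass the rule without OCI-Ly3 shCntrl replicate 1, the raised members gave 14 called higher and 15 called lower of 132, and the lowered members 16 called lower and 0 higher.

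Changes of single rows were large in a few members. Row 15973, lowered in OCI-Ly3, was at 80.5, 77.7 and 82.1 CPM in TMD8 with shCntrl, 69.5, 70.0 and 72.2 with hairpin 1, and 28.8, 30.4 and 30.4 with hairpin 2. All hairpin 2 libraries lay below the others, and the row fell by 1.39 on the log2 scale (SE 0.04, n = 3, limma adjusted p = 2.4e-06). The fall was called under each of 16 alternative settings and left-out libraries. With hairpin 1 the change was -0.18 (SE 0.04, n = 3, limma adjusted p = 0.0181).

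Row 9069, raised in OCI-Ly3 from near 0, was well read in TMD8. It was at 22.6, 20.7 and 19.5 CPM with shCntrl, 15.8, 17.5 and 17.0 with hairpin 1 and 48.6, 53.3 and 48.0 with hairpin 2. The hairpin 2 libraries were above all others and the hairpin 1 libraries below the controls. The log2 fold change was 1.22 with hairpin 2 (SE 0.07, n = 3, limma adjusted p = 9.58e-05) and -0.30 with hairpin 1 (SE 0.07, n = 3, limma adjusted p = 0.0284).

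Further members moved with hairpin 2 in TMD8 as in OCI-Ly3. Row 15382 was at 77.8, 71.2 and 82.3 CPM in the TMD8 controls, 82.0, 87.2 and 87.0 with hairpin 1 and 139, 139 and 144 with hairpin 2, a log2 fold change of 0.86 (SE 0.05, n = 3, limma adjusted p = 0.000106). Its OCI-Ly3 libraries were at 1.75, 3.34 and 2.53 CPM with shCntrl and 8.37, 11.7 and 9.55 with hairpin 2. In both lines the hairpin 2 libraries of this row lay above all others. Row 12934 had a log2 fold change of 1.11 in TMD8 (SE 0.14, n = 3, limma adjusted p = 0.00157), from 3.57, 2.85 and 4.39 CPM to 8.90, 9.02 and 8.63. Row 16714 rose by 0.88 (SE 0.15, n = 3, limma adjusted p = 0.00519), but with all 18 libraries in the fit its adjusted p was 0.453. Its first OCI-Ly3 control was at 0.896 CPM against 24.8 and 19.1 in the others, and without that control it is not a member.

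Rows 506, 1692 and 1861 were raised in OCI-Ly3 and fell in TMD8 with both hairpins. Row 506 was at 17.9, 25.9 and 23.8 CPM in the OCI-Ly3 controls and at 42.1, 49.0 and 49.6 with hairpin 2. In TMD8 it was at 2.95, 3.31 and 4.39 CPM with shCntrl, 1.07, 0.909 and 1.32 with hairpin 1 and 0.971, 0.720 and 0.979 with hairpin 2. Neither hairpin overlapped the controls there, and the changes were -1.26 with hairpin 2 (SE 0.13, n = 3, limma adjusted p = 0.000594) and -1.10 with hairpin 1 (SE 0.13, n = 3, limma adjusted p = 0.00242). Row 1861 went from 8.85, 8.66 and 8.52 CPM to 3.56, 3.82 and 4.57 with hairpin 1 and 3.46, 3.89 and 4.14 with hairpin 2. Row 1692 went from 8.89, 10.2 and 9.51 CPM to 6.58, 4.41 and 4.07 with hairpin 1 and 3.84, 3.46 and 4.27 with hairpin 2. Its fall with hairpin 1 was no longer called without hairpin 1 replicate 2 (limma adjusted p = 0.0527). Row 14266, the most raised in OCI-Ly3, also fell in TMD8, from 101, 98.0 and 93.9 CPM to 55.8, 56.9 and 55.6 with hairpin 1 and 65.5, 71.1 and 70.7 with hairpin 2.

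By the rule, hairpin 1 hardly moved the members in OCI-Ly3. With it in TMD8, most raised members that were called were lower, against their direction with hairpin 2 in OCI-Ly3. This comparison shares its controls with that of hairpin 2. Of the raised members, 43 of 162 were called lower (26.5%) and 2 higher with limma, beside 6.63% of all rows called lower and 7.5% called higher. Their median change was -0.15, beside 0.02 over all rows, and 27 of 162 were above 0. Of the lowered members, 7 of 85 were called higher (8.24%) and 2 lower (2.35%), with a median change of 0.15. Their share called higher was near the 7.5% of all rows. The 54 calls among the members became 27 without TMD8 hairpin 1 replicate 2, 31 without hairpin 1 replicate 3, 32 without shCntrl replicate 1, 35 without shCntrl replicate 2, and 18 with all 18 libraries in the fit. The medians kept their sign in each of 19 alternatives, from -0.30 (DESeq2) to -0.13 in the raised and from 0.09 (members chosen by group means) to 0.16 in the lowered members. The share of reads in the rows was 77.5% ± 0.78 (SD, n = 3) with hairpin 1 and 76.9% ± 0.66 with hairpin 2, against 74.9% ± 0.32 with shCntrl, and its part in these changes was not tested.

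Among the members that moved most with hairpin 1 in TMD8, row 4387 rose with both hairpins, from 40.1, 36.8 and 35.6 CPM to 47.7, 51.7 and 49.5 with hairpin 1 and 62.1, 65.8 and 59.1 with hairpin 2. Row 1815, lowered in OCI-Ly3, rose with hairpin 1 by 0.35 (SE 0.05, n = 3, limma adjusted p = 0.00529). Row 13605 rose with hairpin 1 by 0.76 (limma adjusted p = 0.0164) from a level below 1 CPM, a call lost without shCntrl replicate 1 (0.0613) or replicate 2 (0.0591), or without hairpin 1 replicate 1 (0.0516) or replicate 2 (0.0700). Row 15540 rose by 0.35 (limma adjusted p = 0.0482), a call lost in 13 of 16 alternatives, with the loss of any 1 of the 6 libraries among them (limma adjusted p up to 0.141).

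Set directly against each other in TMD8, the hairpins differed in nearly all members called in the direction in which they differ in OCI-Ly3. Relative to hairpin 1, 46 of 162 raised members were called higher with hairpin 2 (28.4%) and 2 lower, beside 8.45% of all rows called higher and 6.31% called lower. Of the lowered members, 33 of 85 were called lower (38.8%) and none higher; by direction, 79 of 85 were below 0, with a median of -0.31 beside 0.0 over all rows. The median of the raised members was 0.14, and 112 of 162 were above 0. This contrast reuses the hairpin libraries of both comparisons with shCntrl, so it is not a separate result. Against shCntrl, the raised members had a median of 0.0 with hairpin 2 and -0.15 with hairpin 1. The lowered members had -0.09 and 0.15 in the same order. In OCI-Ly3 the rule held hairpin 1 near the controls, so the difference there lay with hairpin 2. The 81 calls became 50 without hairpin 1 replicate 2 and 40 with all 18 libraries in the fit. The medians kept their sign in each of 19 alternatives, from 0.12 to 0.26 (DESeq2) in the raised and from -0.39 to -0.22 in the lowered members.

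The largest difference between the hairpins among the raised members was again in row 9069, at 1.52 (SE 0.07, n = 3, limma adjusted p = 6.35e-05). Row 2167 was at 1.36, 1.86 and 1.19 CPM with hairpin 1 and 3.38, 4.22 and 4.45 with hairpin 2, with no overlap. Row 19516 was at 3.72, 3.73 and 3.38 CPM with hairpin 1 and 7.76, 7.78 and 8.45 with hairpin 2. Its 3 controls, at 6.88, 4.67 and 4.61, lay between the hairpins. Among the lowered members, row 8651 was at 46.5, 43.4 and 46.8 CPM with hairpin 1 and 27.6, 29.0 and 27.7 with hairpin 2, beside controls at 47.0, 45.3 and 46.3. Row 12492 was at 33.3, 34.0 and 34.2 CPM with hairpin 1 and 22.3, 20.9 and 19.5 with hairpin 2, beside controls at 31.5, 32.6 and 29.9. In both rows hairpin 1 overlapped the controls or lay just above them while hairpin 2 lay below, as in OCI-Ly3.

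**Figure D2:**
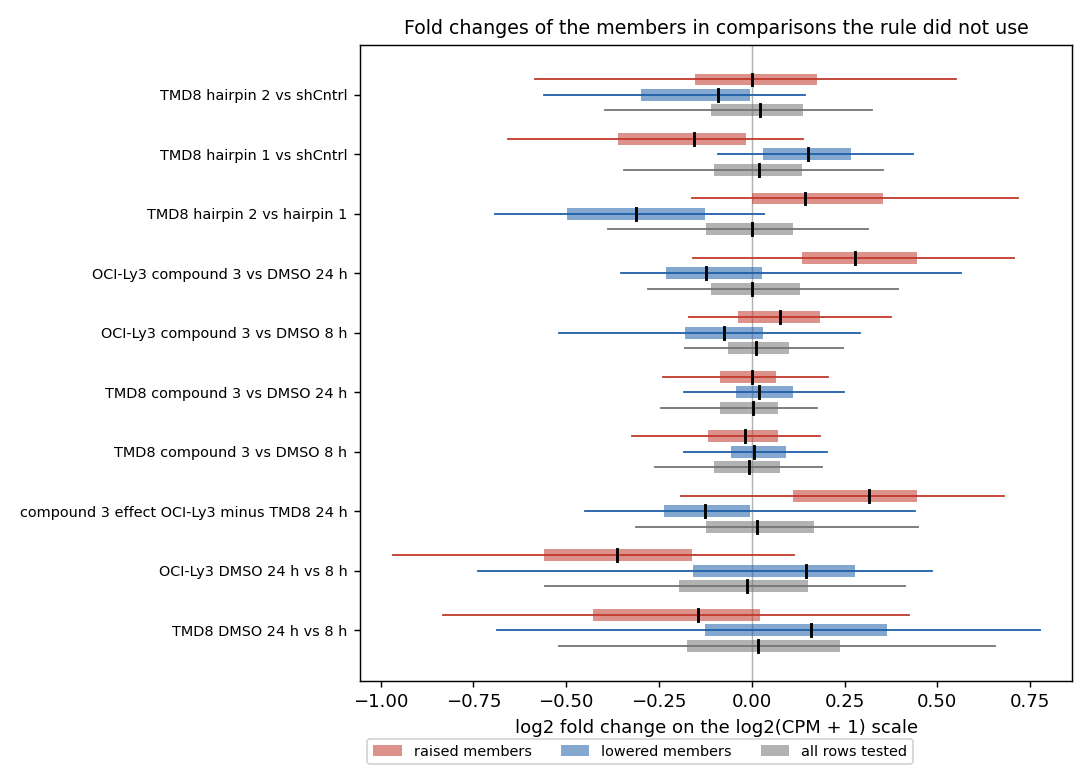
Distribution of log2 fold changes, on the log2(CPM + 1) scale, for raised members, lowered members and all rows tested in 10 comparisons. Boxes span the middle 50% of the rows, black marks are medians and thin lines span the middle 90%. With hairpin 2 in TMD8 the median of the raised members is 0.0, with compound 3 for 24 h it is 0.28 in OCI-Ly3 and 0.0008 in TMD8.

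With compound 3 for 24 h in OCI-Ly3, most raised members had small changes above 0. Few of these passed the test without pairing. With the replicate number as a block, 40 raised members were called higher (27.6%, beside 5.39% of all rows) and 2 lower. Of the 162 raised members, 145 passed the filter of the compound experiment (CPM of at least 1 in 3 or more of its 24 libraries), as did all 85 lowered members; 3 of the 145 passed only through the compound 3 libraries of OCI-Ly3 at 24 h. The median change was 0.28, beside 0.001 over all 12589 rows tested, and 129 of 145 were above 0 (89.0%, against 50.2% of all rows). Without the filter, so that all 162 were counted, the median was 0.25 and 142 were above 0. With limma over all 24 libraries, 6 of the raised members were called higher and none lower, beside 0.651% of all rows called higher and 0.119% called lower. At an unadjusted p below 0.05 there were 37 of the 145 raised and 8 of the 85 lowered members, beside 8.14% of all rows, which is near the share of the lowered members.

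The lowered members leaned down, with a median change of -0.12 and 60 of 85 below 0, but 2 of them were called higher and 1 lower. The 9 calls became 1 without compound 3 replicate 2, 3 without DMSO replicate 1, 4 without compound 3 replicate 3, and 5 without compound 3 replicate 1 or DMSO replicate 3. Same-numbered libraries deviated together in this comparison (correlations of 0.378 to 0.599), and with the replicate number as a block 40 raised members were called higher and 2 lower, and 6 lowered members higher and 5 lower, beside 5.39% of all rows called higher and 3.69% called lower. That fit took its spread from all 24 libraries, those of TMD8 at 24 h included, where the numbers did not pair. The median of the raised members stayed above 0 in each of 19 alternatives, from 0.16 (members chosen by group means) to 0.39, and that of the lowered members below 0, from -0.16 to -0.04 (without DMSO replicate 1).

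All 3 compound 3 libraries lay above all 3 DMSO libraries in 52 of the 145 raised members (35.9%), beside 9.17% of all rows, and below them in 2. The 145 include the 3 members that passed the filter only through these compound 3 libraries, here and in the shares by level below. Of the lowered members, 14 of 85 lay wholly below (16.5%), beside 11.2% of all rows, and 9 wholly above. The lean of the raised members was present at each level of reads. In rows with a mean CPM below 5, 91.2% of 57 raised members had a change above 0, against 58.9% of all rows. From 5 to 20 CPM it was 87.0% of 46, against 56.6%, and at 20 CPM or more it was 88.1% of 42, against 43.8%. With the members that also pass the rule without OCI-Ly3 shCntrl replicate 1, the median was 0.28, with 105 of 119 above 0 and 6 called higher.

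Row 5180 had the smallest adjusted p among the members with compound 3. Its CPM in OCI-Ly3 was 0.583, 0.397 and 0.835 with DMSO for 24 h and 1.19, 2.05 and 2.40 with compound 3. The groups did not overlap, and the log2 fold change was 0.83 (SE 0.13, n = 3, limma adjusted p = 0.00251). In the knockdown it was at 0.981, 3.62 and 3.64 CPM with shCntrl, 3.80, 3.39 and 2.88 with hairpin 1 and 10.9, 13.4 and 11.8 with hairpin 2. In TMD8 it stayed below 0.1 CPM in every library of both experiments. The call was lost when OCI-Ly3 was fitted alone (limma adjusted p = 0.067).

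Row 1165 had the largest change, from 2.61, 3.62 and 2.16 CPM with DMSO for 24 h to 7.18, 11.1 and 6.31 with compound 3, a log2 fold change of 1.26 (SE 0.28, n = 3, limma adjusted p = 0.0351). The groups did not overlap at 24 h. At 8 h they did, at 7.06, 5.16 and 3.45 CPM with DMSO and 7.81, 6.35 and 3.61 with compound 3. The 24 h call was lost in 10 of 16 alternatives, among them leaving out DMSO replicate 1 (limma adjusted p = 0.128) or replicate 3 (0.181), or compound 3 replicate 1 (0.0703), replicate 2 (0.296) or replicate 3 (0.0506). With the replicate block its adjusted p was 1.29e-06.

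Row 4665 went from 1.39, 1.27 and 1.04 CPM to 3.10, 4.43 and 2.17 with compound 3, a log2 fold change of 0.89 (SE 0.15, n = 3, limma adjusted p = 0.00557; 0.0636 without compound 3 replicate 2). Row 3032 went from 5.02, 5.83 and 5.18 CPM to 8.80, 12.1 and 9.36, a log2 fold change of 0.80 (SE 0.16, n = 3, limma adjusted p = 0.0137). That call was lost without DMSO replicate 1 (0.0771), DMSO replicate 3 (0.0701) or compound 3 replicate 2 (0.144). Both rows lay below 0.25 CPM in every TMD8 library, and the TMD8 libraries are part of the fit's estimate of spread. With OCI-Ly3 fitted alone neither row was called (limma adjusted p = 0.108 for row 4665 and 0.17 for row 3032). Neither was called with edgeR (adjusted p = 0.0885 and 0.211). Row 14821, with 0.63 (limma adjusted p = 0.0111), and row 10665, with 0.69 (limma adjusted p = 0.0427), complete the 6 raised members called higher. Row 10665 is named because it completes the count, after its values were seen.

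Row 1815 was the lowered member called lower with compound 3. It was at 24.8, 23.0 and 17.4 CPM with DMSO for 24 h and 15.1, 14.3 and 12.4 with compound 3, with no overlap, and fell by 0.60 on the log2 scale (SE 0.14, n = 3, limma adjusted p = 0.0441). Leaving out any 1 of DMSO replicates 1 and 2 or of the 3 compound 3 libraries ended the call (limma adjusted p from 0.0703 to 0.252), as did edgeR (adjusted p = 0.0742). The lowered members called higher were row 992, by 0.69 (limma adjusted p = 0.0137), and row 18568, by 0.70 (limma adjusted p = 0.0427), both named after their values were seen. Row 15973, which hairpin 2 lowered in both lines, stood higher with compound 3 than with DMSO in OCI-Ly3 at 24 h, at 174, 153 and 172 CPM against 98.8, 120 and 112; its change of 0.59 was not called (limma adjusted p = 0.241).

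**Figure D3:**
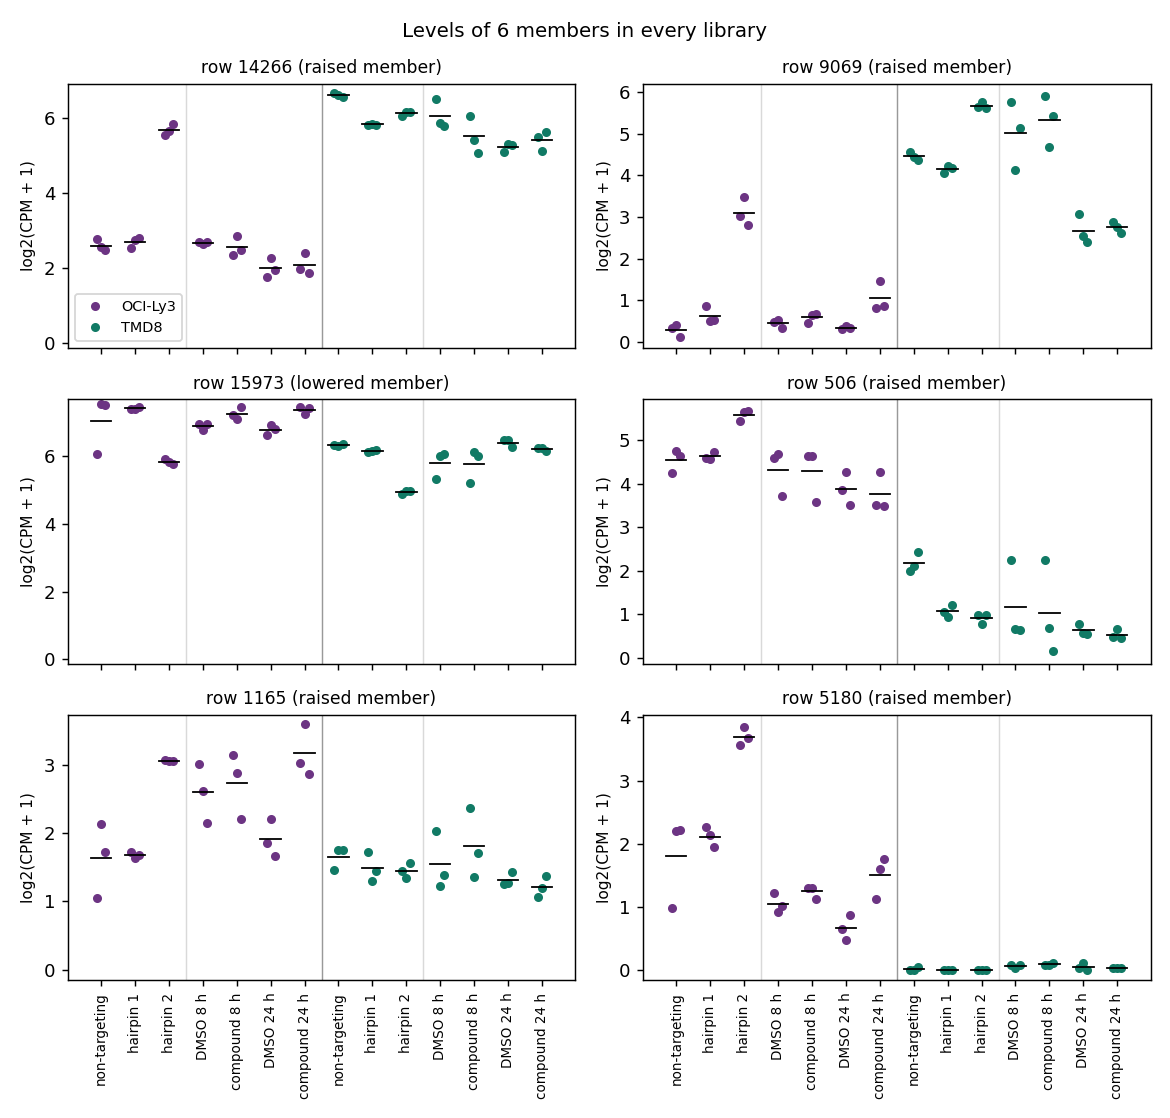
log2(CPM + 1) of 6 members in each of the 42 libraries, with OCI-Ly3 on the left of each panel and TMD8 on the right; black lines are means of 3 libraries. Row 9069 is higher with hairpin 2 in both lines and row 15973 lower in both, rows 14266 and 506 are higher in OCI-Ly3 and lower in TMD8, and rows 1165 and 5180 are higher with compound 3 for 24 h in OCI-Ly3.

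In TMD8, no member was called with compound 3 for 24 h, and medians lay close to 0. limma called 0.0% of all rows in that comparison, and 0 members were called by edgeR or DESeq2. An unadjusted p below 0.05 was reached by 1 of 230 members, beside 0.731% of all rows. The median change was 0.0008 in the raised members, with 74 of 145 above 0, and 0.02 in the lowered. With DMSO for 8 h in TMD8, 47 of all 162 raised members averaged below 1 CPM (29.0%), beside 9.4% of the 12303 rows. The added 1 holds the change of such rows near 0. The rows with the smallest unadjusted p were 8382 and 5515, both at a limma adjusted p of 1. At 8 h in TMD8 there were again 0 calls among the members with limma, edgeR and DESeq2, and 0.0% of all rows called, with medians of -0.02 and 0.006. There, 4 of 230 members had an unadjusted p below 0.05, beside 1.04% of all rows. Row 14266, with the smallest unadjusted p there beside row 10552, was at 90.5, 57.3 and 54.4 CPM with DMSO and 65.9, 41.8 and 32.5 with compound 3, with overlap.

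The difference of the compound effect at 24 h between the lines (OCI-Ly3 minus TMD8) had a median of 0.32 in the raised members and -0.13 in the lowered, beside 0.02 over all rows, and 123 of 145 raised members were above 0. For raised members scarcely read in TMD8, row 5180 among them, this difference largely repeats the OCI-Ly3 change. The raised median was 0.18 without OCI-Ly3 compound 3 replicate 2 and 0.15 with members chosen by group means, and the lowered median was -0.07 without OCI-Ly3 DMSO replicate 1. No member passed the test of this difference with limma, beside 0.0238% of all rows called, and 0 were called by edgeR or DESeq2. An unadjusted p below 0.05 was reached by 18 of 230 members, a larger share than the 3.11% of all rows. Row 5180 had the smallest p, with a difference of 0.84 (limma adjusted p = 0.175), which fell to 0.00919 without OCI-Ly3 compound 3 replicate 1. Row 14821 followed with 0.72 (limma adjusted p = 0.265).

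With compound 3 for 8 h in OCI-Ly3, the median change was 0.08 in the raised members and -0.08 in the lowered, beside 0.01 over all rows. limma called 0 members and 0.0397% of all rows, and 0 members were called by edgeR or DESeq2. An unadjusted p below 0.05 was reached by 11 of 230 members, a larger share than the 1.29% of all rows. Leaving out single libraries gave medians of the raised members from -0.06 (without DMSO replicate 3) to 0.21 (without compound 3 replicate 3). Those of the lowered members ran from -0.18 to 0.04. Without compound 3 replicate 2 the medians were -0.003 in the raised and 0.04 in the lowered members. Leaving out 1 library also left its same-numbered partner unpaired. Relative to the 8 h DMSO mean, the raised members were higher with compound 3 in each same-numbered pair. They stood at 0.13 against 0.11, 0.22 against 0.05 and -0.17 against -0.24. The lowered members were lower in pairs 1 and 2, at -0.02 against 0.04 and -0.37 against -0.15. In pair 3 they were higher, at 0.11 against 0.09. With the replicate block, where same-numbered libraries had correlations of 0.715 to 0.808, 1 raised and 4 lowered members were called lower, beside 0.357% of all rows called. Row 12218 was at 148, 106 and 177 CPM with DMSO and 91.3, 45.1 and 89.2 with compound 3, with no overlap, a change of -0.96 (limma adjusted p = 0.58, and 0.000221 with the block). Row 12898, a raised member, changed by -0.59 (limma adjusted p = 1, and 0.00335 with the block).

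**Figure D4:**
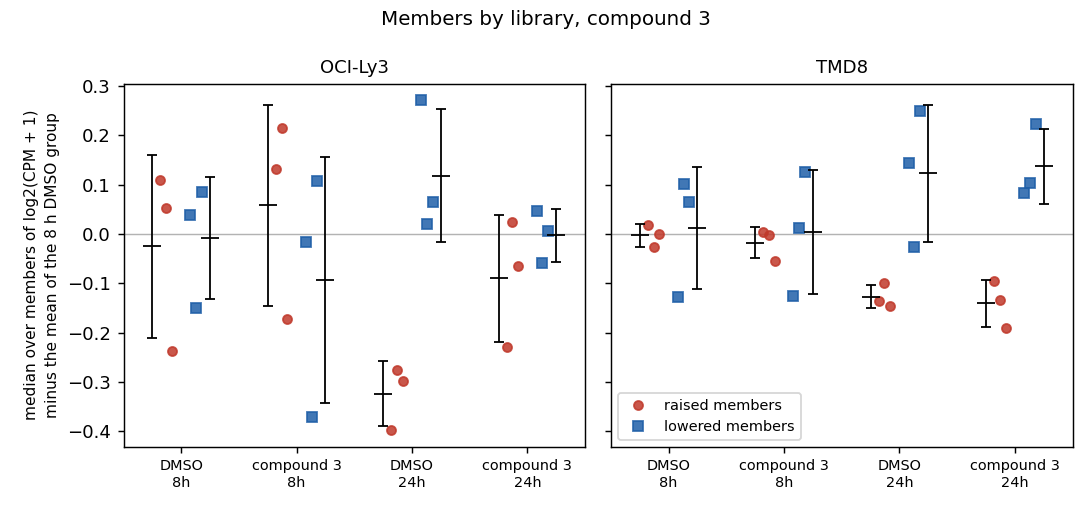
Median over the raised members (circles) and lowered members (squares) of log2(CPM + 1) minus the mean of the 8 h DMSO group of the same line, for each library of the compound experiment. Black bars give the mean and SD of 3 libraries. In OCI-Ly3 at 24 h the raised members are at -0.32 ± 0.065 with DMSO and -0.09 ± 0.13 with compound 3, and in TMD8 at -0.13 ± 0.024 and -0.14 ± 0.048.

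The raised members also changed with time in solvent alone. From 8 h to 24 h in DMSO, their median change in OCI-Ly3 was -0.36, beside -0.01 over all rows, and 17 of 145 were above 0. With limma, 10 raised members were called lower and none higher (beside 2.26% of all rows called lower and 0.921% higher), and of the lowered members 4 were called lower and 1 higher. This comparison shares its 24 h DMSO libraries with that of compound 3, in which those libraries are the control; a low value in them lowers one and raises the other. In the plot of compound libraries, the OCI-Ly3 libraries with compound 3 for 24 h lay at -0.23, 0.02 and -0.07, between the 24 h DMSO libraries at -0.40, -0.28 and -0.30 and the upper 8 h DMSO libraries at 0.11 and 0.05, the third of which was at -0.24.

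The 15 calls became 3 without DMSO 8 h replicate 1, 4 without DMSO 24 h replicate 1, 6 without DMSO 24 h replicate 3 and 26 without DMSO 8 h replicate 3. With the replicate block (correlations of 0.318 to 0.699), 42 raised members were called lower and 1 higher, and 7 lowered members lower and 3 higher, beside 7.29% of all rows called lower and 3.48% called higher. The median of the raised members stayed below 0 in each of 19 alternatives, from -0.51 to -0.26. That of the lowered members was 0.15, and 0.05 without DMSO 24 h replicate 1 and 0.06 without DMSO 8 h replicate 2. Row 18148 fell from 9.81, 14.5 and 8.63 CPM at 8 h to 2.79, 4.30 and 5.67 at 24 h, and stood at 5.49, 6.80 and 8.53 with compound 3 for 24 h. Its change with time was -1.20 (SE 0.25, n = 3, limma adjusted p = 0.0135), which became 0.0505 without DMSO 8 h replicate 1 and 0.0758 without DMSO 24 h replicate 1. Row 613, a lowered member, fell by 1.53 (limma adjusted p = 0.00503; 0.0577 without DMSO 8 h replicate 1).

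Over the same hours in TMD8, the median change was -0.14 in the raised members and 0.16 in the lowered, beside 0.02 over all rows. The raised median was -0.36 with edgeR and -0.35 with DESeq2, whose fold changes have no 1 added to the CPM, and the lowered median was 0.06 without DMSO 24 h replicate 3. With limma, 15 raised members were called lower and 1 higher, and 5 lowered members lower and 5 higher, beside 3.71% of all rows called lower and 3.45% called higher. The 26 calls became 5 without DMSO 8 h replicate 1, 9, 10 and 11 without DMSO 24 h replicates 2, 1 and 3, and 10 without both 8 h libraries numbered 1, which stand apart. Rows 9068, 9069 and 12218 fell most, by 2.60, 2.34 and 1.74 on the log2 scale (limma adjusted p = 1.49e-05, 0.000301 and 0.000411), and stayed called in each of 16 alternatives. Row 9069 was at 52.8, 16.6 and 34.3 CPM at 8 h and at 7.43, 4.82 and 4.24 at 24 h, with no overlap. With compound 3 it was at 59.1, 24.5 and 42.1 CPM at 8 h and 6.40, 5.81 and 5.11 at 24 h, within or near the range of DMSO.

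The share of reads in the rows was set beside the level of the raised members in each library. In OCI-Ly3 with the compound it was 76.3% ± 0.22 (SD, n = 3) with DMSO for 8 h, 75.8% ± 1.58 with compound 3 for 8 h, 77.6% ± 1.88 with DMSO for 24 h and 77.0% ± 1.30 with compound 3 for 24 h. In TMD8 it was 73.2% ± 0.90, 73.9% ± 1.93, 75.1% ± 1.55 and 75.5% ± 0.83 in the same order. The groups with compound 3 overlapped their DMSO groups in both lines and at both times, while the 24 h groups had higher means than the 8 h groups. What the reads outside the rows were is not given in the sources used here, and their part in the results was not tested.

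**Figure D5:**
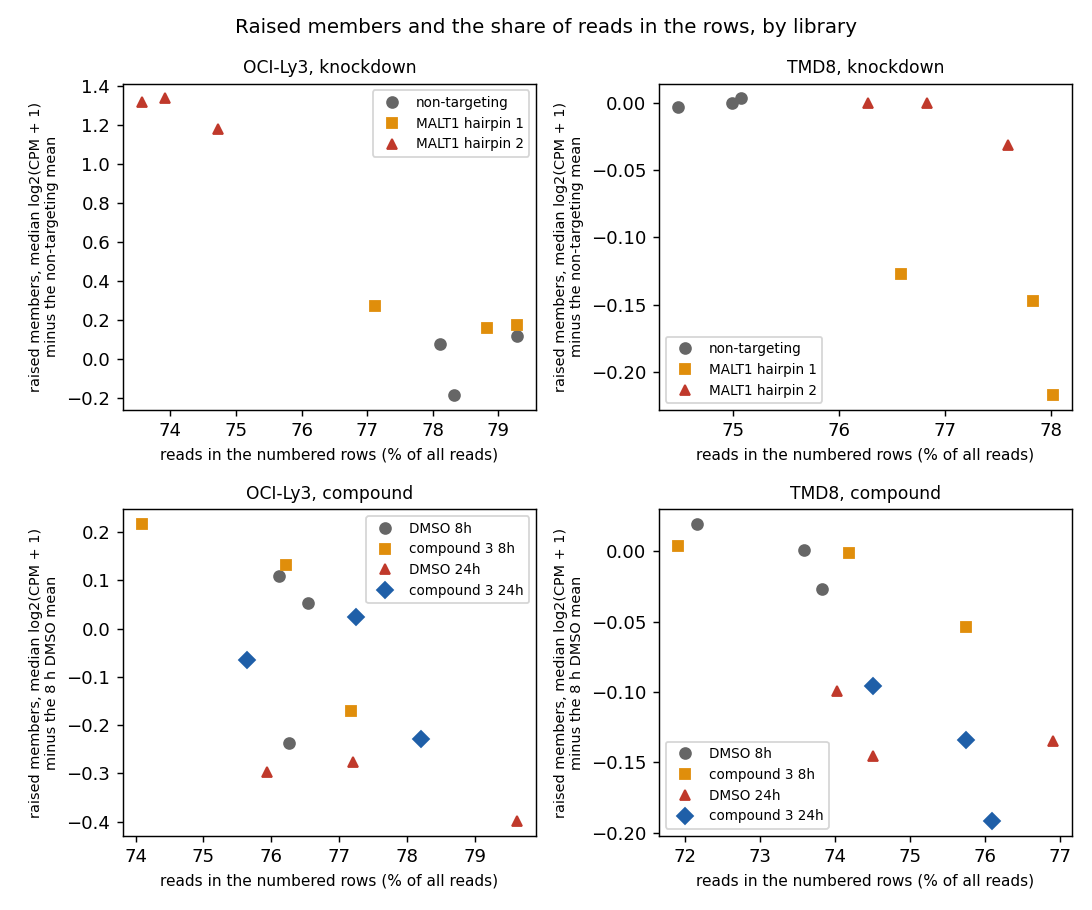
Median log2(CPM + 1) of the raised members, minus the mean of the reference group, against the percent of a library's reads that lie in the 23250 rows, by line and experiment. Each point is 1 library. The hairpin 2 libraries of OCI-Ly3 stand apart from the other 6 on both axes, while the compound 3 and DMSO libraries of a time point overlap in the share of reads.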

How the data were processed

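Per the labels' protocols, a TruSeq stranded mRNA kit was used. The submitters' processing notes name STAR and hg19; the program that counted reads is not named in the labels or files. The authors deposited 42 files of CPM values for 23250 numbered rows without gene names. Dividing by the smallest value of a library left whole numbers (100% within 1e-06), which recovers the reads. The rows held 71.9% to 79.6% of the reads, and depth is given with the results. Groups came from sample titles.

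The added 1 in log2(CPM + 1) shrinks the fold changes of rows with few reads. limma 3.58.1 (R 4.3.3; eBayes with trend, two-sided, Benjamini-Hochberg) was fitted to the 9 TMD8 knockdown libraries (12303 rows) and to the 24 compound libraries (12589 rows with CPM of at least 1 in 3 libraries). The OCI-Ly3 knockdown contrasts chose the members and were not tested. A count test was an alternative only, on recovered reads: edgeR 4.0.16 (quasi-likelihood, TMM) and DESeq2 1.42.0 (size factors). The scripts were tested on simulated data. Other alternatives were the pseudocount (0.25), the filter, rescaling, quantile normalization, the replicate block, other choices of members and leaving out each library. Same-numbered libraries were regarded as pairs where all 3 correlations of their deviations exceeded 0.1: OCI-Ly3 compound 3 and DMSO at 8 h and at 24 h, TMD8 at 8 h (0.75 to 0.921), and OCI-Ly3 DMSO over time. The block fits covered all 24 compound libraries. They therefore also paired TMD8 at 24 h (-0.179 to 0.785) and TMD8 over time (0.0862 to 0.39 in DMSO). The spread behind the OCI-Ly3 block results thus includes pairs below this limit.

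The members, the comparisons and the rule for named rows were chosen with earlier results of these data known. Named rows were the 6 most raised and 6 most lowered members, up to 4 called members a direction in each comparison (with 0 called, the 2 with the smallest p), and the rows beside each limit; a part of the rule for members called in several independent comparisons named none. No library pair within a group agreed within sampling noise: the chi-square per degree of freedom was 1.71 at the lowest.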

Additional observations from a re-analysis of the deposited data

Results flagged for a closer look

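Rows 506, 1692 and 1861 were singled out from the rows named for hairpin 2 in TMD8, not from all members. In each, every hairpin 2 library moved one way in OCI-Ly3 and the opposite way in TMD8, with a change past the test in TMD8. They are not the only such members, since row 14266 also changed by -0.49 in TMD8 (limma adjusted p = 0.000322). Of the 154 raised members wholly above the OCI-Ly3 controls, 31 lay wholly below them in TMD8 (20.1%) and 34 wholly above (22.1%). Over all rows these shares were 15.7% and 20.7%. Against shCntrl, hairpin 2 gave log2 fold changes in TMD8 of -1.26 for row 506, -1.12 for row 1692 and -1.005 for row 1861, while the rule made all of them higher by 1.01 or more in OCI-Ly3. The difference between the lines was not tested, since the OCI-Ly3 values chose the rows.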

How the results depend on the processing

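The list itself moved to 163 rows with group means in place of medians and to 148 with hairpin 1 limits of 0.2, and ran from 169 to 333 when single libraries were left out. Counts of called members moved as follows. The number of all rows called moved with the setting too, so these counts alone do not set the members against all rows. With all 18 knockdown libraries in the fit, calls in TMD8 were 37 (hairpin 2), 18 (hairpin 1) and 40 (hairpin 2 against hairpin 1). Over all 12303 rows the calls were then 1051, 480 and 631, against 2649, 1739 and 1816 in the main fit. Leaving out single libraries gave 48 to 65, 27 to 39 and 50 to 91. For compound 3 at 24 h in OCI-Ly3, calls were 5 with members chosen by group means, 5 with a pseudocount of 0.25, 5 with quantile normalization, 1 with edgeR, 1 with that line fitted alone, and 1 to 7 without single libraries. The difference between the lines gave 0 to 1 without single libraries. For time in DMSO in OCI-Ly3, calls were 7 with members by group means, 27 with DESeq2, 5 with that line alone, 35 without both TMD8 8 h libraries numbered 1, and 3 to 26 without single libraries. For TMD8 they were 14, 40, 10 and 10 in the same order, 15 with no filter, and 5 to 33 without single libraries.

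With the replicate block, calls were 53 for compound 3 at 24 h in OCI-Ly3, 5 at 8 h, and 53 for time there. Over all 12589 rows they were 1142, 45 and 1356 in the same order. The block gave 17 of 230 members for the difference between the lines, beside 261 of all 12589 rows. For time in TMD8 it gave 59 of 230, beside 2576 of all 12589 rows. In both of these comparisons the numbers did not pair all samples. In the TMD8 knockdown the numbers did not pair either (lowest correlation -0.474), and the block moved no count there by over 1.5 times. The cause of these moves was not tested. No named row that was called reversed its sign in any alternative. Over all counts and alternatives, 168 recomputed counts stayed within 1.5 times of the reported one, or equal to it at 0, and 43 did not. Compound 3 in TMD8 gave 0 member calls in every alternative at both times, and these are among the 168. The 168 therefore do not measure how steady the counts above 0 were. Depth limits the TMD8 results for the 34 raised and 6 lowered members below 1 CPM there, which stands for 20.8 to 24.2 reads in those libraries.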
